A study of Mus musculus with 6 samples.

Results

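The genes described here encode the receptors through which colony-stimulating factors and related growth factors act on blood cells, together with a pair of their ligands. The members were listed by name: the 8 receptor genes Csf1r, Csf2ra, Csf2rb, Csf2rb2, Csf3r, Flt3, Kit and Il3ra and the 2 ligand genes Csf1 and Kitl. Each of the 10 symbols matched a single Ensembl row among the 45193 genes of the deposited count table. RNA sequencing was done on cultured mouse bone marrow-derived macrophages, with 3 libraries from C57BL/6J wild-type (WT) cells and 3 libraries from C57BL/6J cells of the genotype RXRafl/flLysMCre RXRb-/-, called the knockout. In the knockout, Cre is expressed from the lysozyme M locus, Lyz2, which is active in myeloid cells, and acts on loxP-flanked Rxra alleles, while Rxrb is inactivated in every cell. No Cre is described for the WT cells, so loss of the retinoid X receptors (RXRs), Cre and the altered Lyz2 locus cannot be told apart. Marrow cells of both genotypes were cultured for 6 days in medium with 20% serum and 30% L929-conditioned medium, which is rich in CSF-1. The medium was changed to a serum-free one on the evening of day 5, and the cells received only the solvent DMSO for 3 hours. The labels do not say whether CSF-1 was present after that change, nor which animals gave each library, so each p-value reflects spread among the 6 libraries, which may be technical.

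Macrophages depend on CSF-1, which binds the receptor tyrosine kinase encoded by Csf1r and drives survival, proliferation and differentiation of the lineage. Kit and Flt3 are receptor kinases of the same structural class that act mainly on stem cells, progenitors, mast cells and dendritic cell precursors. GM-CSF, IL-3 and IL-5 each bind a private alpha chain that joins a shared beta chain, and mice carry a second, IL-3-selective beta chain gene. G-CSF acts through a receptor that pairs with itself and is best known for its part in neutrophil production.

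The libraries held between 7880320 and 25091019 counted reads, and each knockout library was deeper than each WT library. Levels are given as CPM, reads scaled to library size, with TMM factors that correct for differences in RNA composition. A log2 ratio (log2 fold change in the plots) is the fitted knockout level over the WT level on the log2 scale, and SE is its standard error. Of the modified genes, Rxrb was at 66.7 ± 1.86 CPM in WT libraries and 9.27 ± 2.09 CPM in knockout libraries (mean ± SD, n = 3, as throughout), and Lyz2 at 15258 ± 594 and 28.4 ± 6.12 CPM. Rxra stood at 104 ± 6.7 CPM and 109 ± 4.83 CPM, which over a whole gene does not check the removal of its floxed part. All 9 macrophage markers exceeded 56 CPM in every library, with summed levels of 19633 to 21714 CPM in WT and 21497 to 22735 CPM in the knockout, and Ctsd, a lysosomal protease gene, made up most of that sum (11737 ± 1631 and 13405 ± 1471 CPM). Of the 9, Cd14, an endotoxin co-receptor gene (296 ± 11.2 to 628 ± 34 CPM), and Itgam, the CD11b gene (687 ± 55.3 to 1081 ± 102 CPM), rose. Aif1 (106 ± 18.3 to 64.3 ± 10 CPM) and Fcgr1, an Fc receptor gene (108 ± 8.87 to 83.3 ± 9.69 CPM), fell, and 5 did not pass. These 4 were chosen after their values were seen, and their part in the results on the members was not tested.

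Most of these genes were higher in the knockout. Of the 9 members with enough reads to test, 7 rose, 0 fell and 2 did not pass (edgeR quasi-likelihood test, Benjamini-Hochberg adjusted p under 0.05), beside 9.77% of all 12011 tested genes that rose and 9.61% that fell. The 7 were Csf1r, Csf2ra, Csf2rb, Csf2rb2, Csf3r, Csf1 and Kitl; Kit and Il3ra did not pass, and Flt3 had too few reads. In the same 7 genes the lowest knockout library lay above the highest WT library, a pattern that 19% of tested genes showed in that direction. The median log2 ratio of the tested members was 0.70, against -0.0048 over all tested genes. The members were chosen with earlier results of these data known. In bulk RNA, a changed share of a cell type and changed RNA per cell cannot be told apart.

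**Figure D1:**
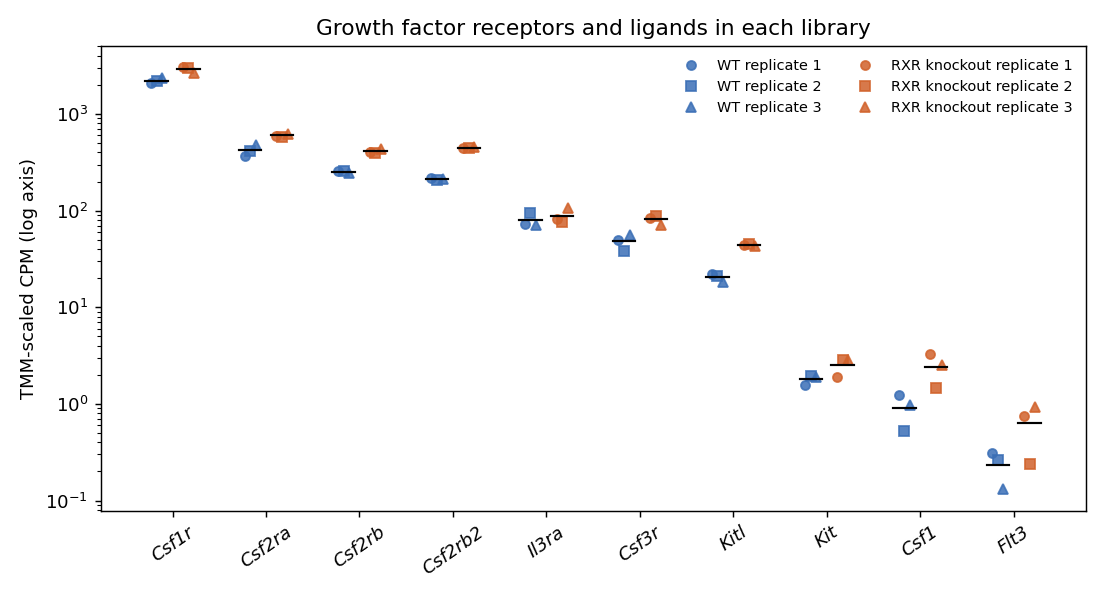
Levels of the 10 genes in each library as TMM-scaled CPM on a log axis, with WT in blue, knockout in orange, 1 marker shape per replicate number and a black line at each genotype mean. Csf1r is the highest in all libraries, and only Il3ra, Kit and Flt3 have genotypes that overlap.

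Per kilobase of exon, which allows levels of different genes to be compared, Csf1r led the set. It stood at 384 ± 24.4 CPM per kb in WT and 505 ± 36 CPM per kb in the knockout, and 0.558% of tested genes lay above it. In WT the order below it was Csf2ra (147 ± 18.7 CPM per kb), Csf2rb2 (45.0 ± 1.06), Csf2rb (34.8 ± 0.808), Il3ra (26.9 ± 4.51), Csf3r (13.3 ± 2.49) and Kitl (3.48 ± 0.352). Kit (0.202 ± 0.0241 CPM per kb), Csf1 (0.173 ± 0.0693) and Flt3 (0.0379 ± 0.0151) came last, and the WT values of Kit and Csf1 overlapped. In the knockout the order was the same except that Csf1 (0.459 ± 0.171 CPM per kb) came before Kit (0.286 ± 0.0615), again with overlapping values. No other neighbours in either order overlapped. The place of Csf2rb depended on the length used: with the longest coding transcript in place of all exons it stood above Csf2rb2 in WT (51.7 ± 1.2 against 45.0 ± 1.06 CPM per kb) and below it in the knockout (83.8 ± 4.16 against 94.5 ± 1.2 CPM per kb).

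Csf1r (ENSMUSG00000024621, chromosome 18, 61100598 to 61132149, plus strand, GRCm38) encodes the CSF-1 receptor, the defining growth factor receptor of macrophages. It was measured at 2093, 2186 and 2370 CPM in WT replicates 1, 2 and 3 and at 3058, 3009 and 2676 CPM in knockout replicates 1, 2 and 3. All knockout libraries lay above all WT libraries, with knockout replicate 3 closest to WT. The gene rose by a log2 ratio of 0.39 (SE 0.0847, edgeR adjusted p = 0.00575), a 1.31-fold difference and the smallest among the members that passed. Hmgxb3, a gene on the opposite strand, shares 15.1% of the exonic bases of Csf1r, and the use of strand in counting is not given in the sources used here. Its own reads came to between 0.976% and 1.37% of the Csf1r reads in each library. These percentages do not show how reads in the shared bases were counted.

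Csf1 (ENSMUSG00000014599, chromosome 3, 107741048 to 107760469, minus strand) encodes the ligand of that receptor and was barely expressed by the macrophages themselves. It had 12, 4 and 15 reads in WT replicates 1 to 3 and 56, 37 and 47 reads in knockout replicates 1 to 3. These gave 1.25, 0.522 and 0.98 CPM in WT and 3.26, 1.47 and 2.55 CPM in the knockout. The genotypes did not overlap, but the highest WT library and the lowest knockout library differed little. The log2 ratio was 1.33 (SE 0.4, edgeR adjusted p = 0.0345). This call was lost in 8 of 17 alternative fits, among them the removal of any library other than knockout replicate 2 (adjusted p from 0.0605 to 0.141), thinning of all libraries to equal depth (0.0752) and limma-voom (0.0787).

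Both beta chain genes rose, and Csf2rb2 had the largest log2 ratio of the tested receptors. Csf2rb (ENSMUSG00000071713, chromosome 15, 78325752 to 78353847, plus strand) encodes the common beta chain of the GM-CSF, IL-3 and IL-5 receptors. Csf2rb2 (ENSMUSG00000071714, chromosome 15, 78282507 to 78305721, minus strand) encodes the beta chain selective for IL-3 and lies head to head with it, 20030 bases away. Their coding sequences were aligned to see how far short reads can tell them apart. Over 2628 aligned coding bases 95.2% were identical, 125 differed, and 66 bases in either copy had no partner. Of all 75-base windows, the cycle number of the sequencing kit, 10.7% of those in the longest coding Csf2rb transcript and 11.1% of those in Csf2rb2 occurred unchanged in a transcript of the other gene. The longest stretch that the coding sequences shared ran over coding bases 2083 to 2324 of each, and reads that fall wholly inside it cannot be assigned by their letters (GENCODE M21 transcripts, GRCm38, sense strand).
Csf2rb and Csf2rb2: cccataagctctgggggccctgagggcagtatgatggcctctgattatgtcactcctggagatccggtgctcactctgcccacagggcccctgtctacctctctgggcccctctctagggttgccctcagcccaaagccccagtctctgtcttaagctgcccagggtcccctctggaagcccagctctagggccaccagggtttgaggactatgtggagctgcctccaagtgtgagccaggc

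Of the 413 shared 75-base windows within the coding sequence, 168 lie in that stretch and 245 elsewhere. Other places tell the copies apart. The gap-free 100-base stretch with the most differences held 17 of them, shown here in capitals, at coding bases 314 to 413 of Csf2rb and 317 to 416 of Csf2rb2.
Csf2rb: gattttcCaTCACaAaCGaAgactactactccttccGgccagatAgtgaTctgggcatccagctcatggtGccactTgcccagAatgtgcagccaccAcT
Csf2rb2: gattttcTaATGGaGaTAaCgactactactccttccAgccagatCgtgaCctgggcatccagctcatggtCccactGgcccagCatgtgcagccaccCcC

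Csf2rb stood at 258, 255 and 247 CPM in WT and at 402, 397 and 434 CPM in the knockout. It rose by a log2 ratio of 0.70 (SE 0.0764, edgeR adjusted p = 4.33e-05), and the genotypes were far apart relative to their spread. Csf2rb2 stood at 219, 210 and 211 CPM in WT and at 447, 443 and 454 CPM in the knockout. It rose by 1.07 (SE 0.0736, edgeR adjusted p = 9.28e-07), a 2.1-fold difference, with a coefficient of variation of 2.3% in WT and 1.3% in the knockout. Summed into a single row before the fit, so that reads exchanged between the copies cannot matter, the pair rose from 466 ± 9.61 to 859 ± 26 CPM (log2 ratio 0.88, SE 0.074, edgeR adjusted p = 5.11e-06).

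The balance between the copies did not overlap between the genotypes. Csf2rb2 supplied 45.9%, 45.1% and 46.2% of the pair's reads in WT replicates 1 to 3 and 52.7%, 52.8% and 51.1% in knockout replicates 1 to 3. Csf2rb thus had more reads than Csf2rb2 in each WT library and fewer in each knockout library. The share went from 45.7 ± 0.551% to 52.2 ± 0.915% (n = 3). An exact two-sided permutation test gave p = 0.1, the lowest value possible among 20 arrangements, so it could not pass the threshold whatever the shares. The 95% normal intervals of the log2 ratios, 0.55 to 0.85 for Csf2rb and 0.93 to 1.21 for Csf2rb2, did not overlap. No fit compared the copies, and the sources used here do not say how reads that match both were counted.

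**Figure D2:**
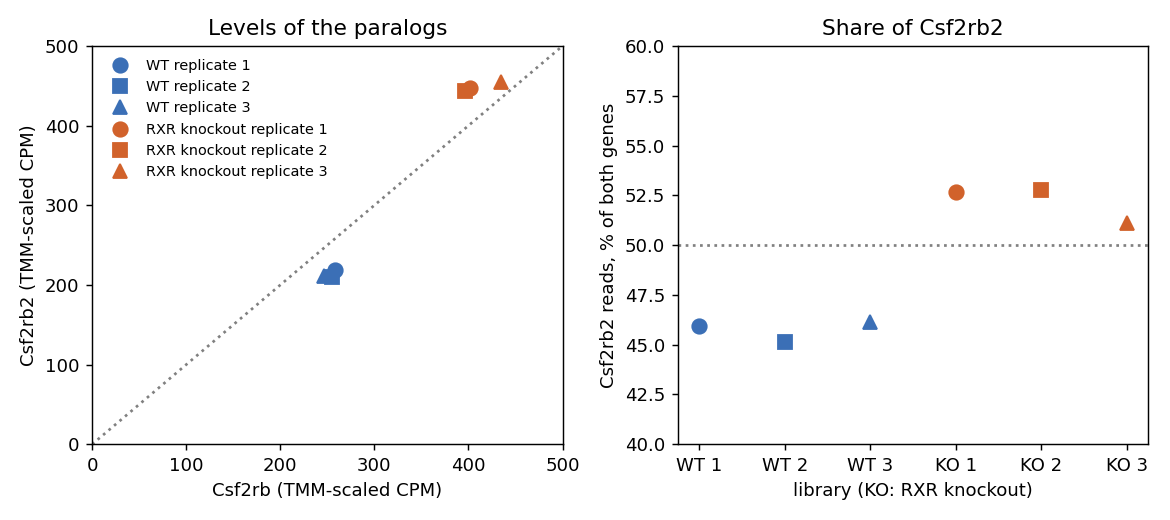
Left, Csf2rb2 against Csf2rb in each library as TMM-scaled CPM, with equality as a dotted line; right, the share of the pair's reads that fell on Csf2rb2, on an axis from 40% to 60% with 50% dotted. The WT libraries lie between 45.1% and 46.2%, and the knockout libraries between 51.1% and 52.8%.

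The alpha chains give these receptors their ligand specificity. Csf2ra (ENSMUSG00000059326, chromosome 19, 61223957 to 61228429, minus strand) encodes the GM-CSF-binding chain. It was at 369, 419 and 476 CPM in WT and at 598, 581 and 618 CPM in the knockout. The WT libraries were more spread than the knockout ones, and the groups did not overlap. The gene rose by a log2 ratio of 0.51 (SE 0.0944, edgeR adjusted p = 0.00235).

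Il3ra (ENSMUSG00000068758, chromosome 14, 14346275 to 14356011, plus strand) encodes the IL-3-binding chain. It was at 73.6, 95.2 and 70.8 CPM in WT and at 82.1, 76.1 and 107 CPM in the knockout. WT replicate 2 exceeded knockout replicates 1 and 2, so the genotypes overlapped. The log2 ratio was 0.15 (SE 0.139, edgeR adjusted p = 0.499) with a 95% interval from -0.12 to 0.42, which does not show equal levels. That interval overlaps the one of Csf2ra, 0.32 to 0.69, and the difference between the alpha chains was not tested. Without knockout replicate 3 the value was -0.0072.

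WT replicate 2 and knockout replicate 3, the libraries with the highest Il3ra of their genotypes, also had the lowest Csf3r. Across the 12011 tested genes, the deviations of these 2 libraries from their genotype means had a correlation of 0.383, given as a description. It was the highest among all combinations of a WT and a knockout library, followed by 0.299 for WT replicate 3 and knockout replicate 2. The labels name nothing that WT replicate 2 and knockout replicate 3 share. A fit without the 2 of them was added after these values were seen, and it drops the lowest Csf3r value of each genotype. It gave log2 ratios of 0.13 for Il3ra (edgeR adjusted p = 0.36), 0.70 for Csf3r (1.02e-04) and 0.44 for Csf1r (0.0019). The Csf3r result of this fit is therefore no separate support.

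**Figure D3:**
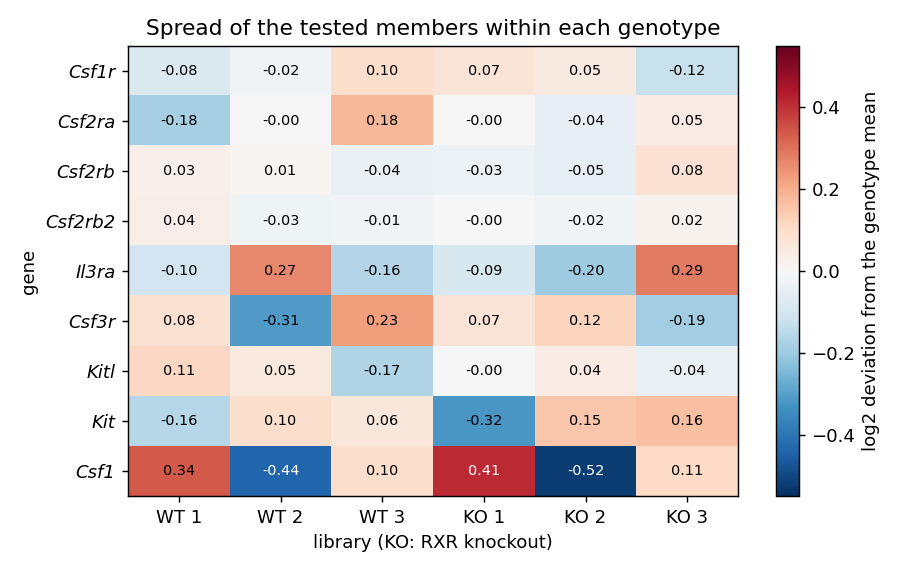
Deviation of each tested member from its genotype mean in each library, in log2 CPM, with red above and blue below the mean. WT replicate 2 and knockout replicate 3 are the libraries where Il3ra is high and Csf3r low, while Csf2rb and Csf2rb2 stay within 0.081 of their means.

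Csf3r (ENSMUSG00000028859, chromosome 4, 126024550 to 126044440, plus strand) encodes the G-CSF receptor. It stood at 50.2, 38.1 and 55.6 CPM in WT and at 84.8, 88.0 and 70.7 CPM in the knockout. Each knockout library exceeded each WT library. The gene rose by a log2 ratio of 0.75 (SE 0.131, edgeR adjusted p = 0.00154), and by 0.61 to 0.87 with a library left out. Neutrophils are known for high Csf3r, and all 11 neutrophil markers passed the filter on low counts, with summed levels of 1126 to 1278 CPM in WT and 1045 to 1173 CPM in the knockout. Among them Cxcr2 (0.938 ± 0.318 to 2.09 ± 0.422 CPM) and Mmp8 (45.8 ± 9.16 to 70.2 ± 13.3 CPM) rose, and Elane (29.8 ± 5.33 to 13.9 ± 1.9 CPM), Mpo (54.3 ± 2.9 to 29.5 ± 1.81 CPM) and Ngp (377 ± 19.3 to 313 ± 24.5 CPM) fell. Elane and Mpo encode primary granule proteins made by early neutrophil precursors, and Ngp and Mmp8 encode proteins of later granules. None of the neutrophil genes other than Ngp was named by the rule, so these were chosen after their values were seen. The part of neutrophil-lineage cells in the Csf3r difference was not tested.

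Kitl (ENSMUSG00000019966, chromosome 10, 100015630 to 100100416, plus strand) encodes stem cell factor, the ligand of Kit, which is usually made by stromal cells. It was at 22.2, 21.3 and 18.2 CPM in WT and at 44.1, 45.6 and 43.0 CPM in the knockout. The difference was many times the spread within either genotype. The gene rose by a log2 ratio of 1.12 (SE 0.106, edgeR adjusted p = 1.39e-05), a 2.17-fold difference, with values from 1.02 to 1.17 when a library was left out. It was the sole member on a chromosome that carries a modified locus, 17.2 Mb from Lyz2. Of 7 markers of fibroblasts and marrow stroma, 4 were under 1 CPM in every library, 0 rose and Col3a1 fell (2.47 ± 0.844 to 0.668 ± 0.218 CPM). Their summed levels were 9.13 to 11.4 CPM in WT and 4.37 to 10.7 CPM in the knockout, with Col1a1, a collagen gene, the most abundant (3.85 ± 0.966 and 3.14 ± 2.48 CPM). Col1a1 did not pass, but fell without knockout replicate 3 (log2 ratio -1.23, edgeR adjusted p = 0.0139). The part of stromal cells in the Kitl difference was not tested.

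Kit (ENSMUSG00000005672, chromosome 5, 75574916 to 75656722, plus strand) encodes the receptor for that ligand. It had 15, 15 and 29 reads in WT and 33, 72 and 53 reads in the knockout, or 1.56, 1.96 and 1.89 CPM against 1.92, 2.86 and 2.88 CPM. Knockout replicate 1 lay inside the WT range. The log2 ratio was 0.51 (SE 0.277, edgeR adjusted p = 0.227), with a 95% interval from -0.034 to 1.05. With the libraries thinned to equal depth the log2 ratio was 0.23 (edgeR adjusted p = 0.686). Most markers of cells known for Kit were low. Of 9 mast cell and basophil genes, 8 were under 1 CPM in every library and 3 (Mcpt4, Tpsb2 and Cma1) had no read, the exception being Hdc, the histidine decarboxylase gene (6.35 ± 1.23 and 8.07 ± 0.508 CPM). Of 8 stem and progenitor genes, 5 were under 1 CPM in every library, and of the 4 that could be tested 0 passed. The most abundant of the 8 was Procr, the endothelial protein C receptor gene (34.4 ± 3.89 and 35.4 ± 2.48 CPM). The part of such cells in the Kit reads was not tested.

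Flt3 (ENSMUSG00000042817, chromosome 5, 147330741 to 147400489, minus strand) encodes the receptor kinase of dendritic cell precursors and early progenitors. It had 3, 2 and 2 reads in WT and 13, 6 and 17 reads in the knockout, too few for the filter. Knockout replicate 2 fell within the WT range in CPM. In a fit without the filter, on 27301 genes, the log2 ratio was 1.47 (SE 0.755, edgeR adjusted p = 0.307), so no difference was detectable at this depth. Of 8 dendritic cell markers 6 were under 1 CPM in every library, and Batf3, a transcription factor gene, was the most abundant (13.0 ± 3.31 and 13.9 ± 2.66 CPM).

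**Figure D4:**
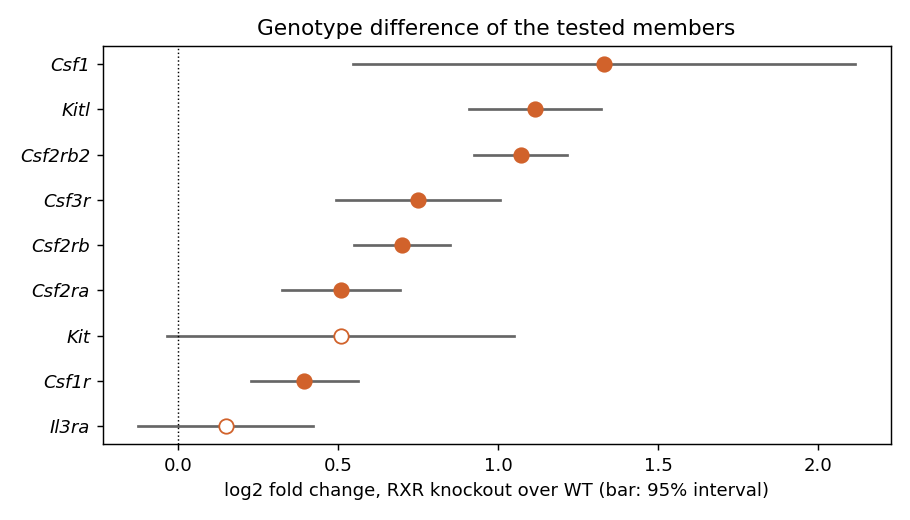
Log2 ratio of the 9 tested members, knockout over WT, with 95% normal intervals from the SE; filled points passed the test and open points did not. The intervals of Kit and Il3ra reach across 0, and that of Csf1 is the widest.

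RXR partners bind DNA at copies of the half-site AGGTCA, and PU.1, a transcription factor that macrophages need, binds sites with the core GAGGAA. RefSeq promoter entries (GRCm38.p6) matched 8 of the 10 members, all but Csf1r and Csf2rb, and the 250 bases before each start were searched on both strands. For several members part of this window lay inside the gene as GENCODE annotates it. These bases numbered 220 for Il3ra, 191 for Kitl, 109 for Csf3r, 71 or 75 for Kit by entry, and 11 for Csf2ra. AGGTCA occurred in 0 of the 8 members, against 14.0% of all 32851 promoter entries. Direct repeats of it with 1 to 5 bases between the copies also occurred in 0. Each spacing is found in only 0.01% to 0.03% of all entries, so this absence says nothing about the members. GAGGAA occurred in 4 of the 8 (Csf2ra, Csf2rb2, Csf3r and Kit), against 23.2% of entries. Of these genes Kit did not pass the test, and Kitl and Csf1, which have no match, did. Matches of this kind are descriptions of letters in a short window and show no binding. The window of Csf2rb2, the receptor gene with the largest log2 ratio, lies at chr15:78305722-78305971, is written in the direction of transcription, and has its match, on the opposite strand, in capitals.
Csf2rb2 promoter: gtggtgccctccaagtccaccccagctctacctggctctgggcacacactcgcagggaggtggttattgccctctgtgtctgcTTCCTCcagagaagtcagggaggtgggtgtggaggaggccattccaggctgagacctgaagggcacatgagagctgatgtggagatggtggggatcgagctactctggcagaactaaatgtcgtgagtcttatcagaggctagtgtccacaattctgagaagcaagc

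The other ligands of these receptors were almost silent. Of 8 listed ligand genes, 7 were in the table and 0 had enough reads to test. Csf2, Il3, Il5 and Epo had no read in any library, and Il34, which encodes the alternative ligand of the CSF-1 receptor, had 3 reads in all, in knockout replicate 3. Csf3 had 1 read in WT replicate 2 and 1 in knockout replicate 2, and Thpo 1 in knockout replicate 1. The ligands with values were named after those were seen, and Flt3l matched no row.

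Related receptors were few. Among 10 listed genes 4 could be tested, with 1 rise, 1 fall and 2 short of the threshold. Epor, the erythropoietin receptor gene, fell, with 1.82 ± 0.477 CPM in WT and 0.22 ± 0.0923 CPM in knockout libraries (log2 ratio -3.08, SE 0.445, edgeR adjusted p = 3.99e-04). Il6st, which encodes the shared signalling chain of IL-6 family receptors, rose (0.35, SE 0.104, edgeR adjusted p = 0.0351), but its genotypes overlapped and it no longer passed when replicate 1 or 2 of either genotype was left out (adjusted p from 0.113 to 0.15).

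Genes that carry the signal from these receptors showed mostly small differences. The 22 tested genes comprised 4 rises, 1 fall and 17 short of the threshold, with a median log2 ratio of 0.028. Beside the counts of this and the other lists, 9.77% of all 12011 tested genes rose and 9.61% fell. Fgr, a Src-family kinase gene of myeloid cells, fell from 32.2, 33.6 and 44.6 CPM in WT to 11.3, 11.6 and 11.5 CPM in the knockout (log2 ratio -1.69, SE 0.135, edgeR adjusted p = 3.6e-06). Pik3r1, a regulatory subunit gene of PI 3-kinase (0.40), and Gab2, an adaptor gene (0.29), rose, as did Stat3 and Src, which were chosen after their values were seen. The rises numbered 0 when either of WT replicates 1 and 2 or knockout replicate 1 was left out, 1 without knockout replicate 2, 2 without knockout replicate 3 and 4 without WT replicate 3. Jak2 (0.19), Stat5a (-0.13) and Stat5b (-0.10), which encode the kinase and transcription factors used by the beta chains, did not pass and were likewise chosen after their values were seen.

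Among 12 tested genes that restrain or shed these receptors, there were 2 rises, 2 falls and 8 genes short of the threshold (median log2 ratio 0.015). Cbl and Cblb encode ubiquitin ligases that send activated receptors, CSF1R among them, to degradation. Cblb rose from 45.2 ± 4.59 to 69.1 ± 6.09 CPM (log2 ratio 0.61, SE 0.103, edgeR adjusted p = 0.00131) and Cbl from 51.4 ± 13.1 to 81.8 ± 7.54 CPM (0.66, SE 0.149, edgeR adjusted p = 0.00835). Socs3, a cytokine-induced inhibitor of JAK signalling, fell from 3.47 ± 0.234 to 1.34 ± 0.282 CPM (-1.35, SE 0.261), and Dok3, an inhibitory adaptor gene, fell (-0.25), a call lost when any library was left out (edgeR adjusted p from 0.0579 to 0.159). Cish and Socs2, common readouts of STAT5 activity, had too few reads to test.

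Among 15 tested transcription factor genes of the blood lineages, there were 6 rises, 2 falls and 7 genes short of the threshold (median log2 ratio 0.19). Ets2, a factor downstream of CSF-1 signalling, rose from 44.2 ± 3.74 to 82 ± 4.99 CPM (0.89, SE 0.0946, edgeR adjusted p = 3.42e-05). Irf8, needed for monocyte development, rose from 183 ± 4.94 to 283 ± 15.3 CPM (0.63, SE 0.0778). Tfec, a MiT-family factor gene, fell from 39.8 ± 2.52 to 26.1 ± 0.707 CPM (-0.60, SE 0.0969, edgeR adjusted p = 8.51e-04). Of the same family, Mitf rose (0.47, edgeR adjusted p = 0.00157) and Tfe3 did not pass (0.028), both chosen after their values were seen. Spi1, which encodes PU.1, stood at 518 ± 1.61 and 459 ± 20.4 CPM (-0.17, edgeR adjusted p = 0.125), and was chosen after its values were seen.

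Genes known to respond to growth factors numbered 12, with 2 rises, 1 fall and 9 short of the threshold (median log2 ratio 0.051). Bcl2l1, which encodes the survival protein BCL-XL, rose from 172 ± 25.5 to 258 ± 30.1 CPM (0.59, SE 0.113, edgeR adjusted p = 0.00302). Ccnd1, the cyclin D1 gene, rose (0.26), which no longer passed when replicate 1 or 2 of either genotype was left out (edgeR adjusted p from 0.0646 to 0.126). Fos, an immediate early gene, fell from 245 ± 9.74 to 121 ± 7.04 CPM (-1.02, SE 0.0802, edgeR adjusted p = 3.31e-06). The median of the tested members, 0.70, lay above those of the 5 other lists, which ran from 0.015 to 0.19. No test compared the lists, and members and lists were chosen with earlier results of these data known.

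**Figure D5:**
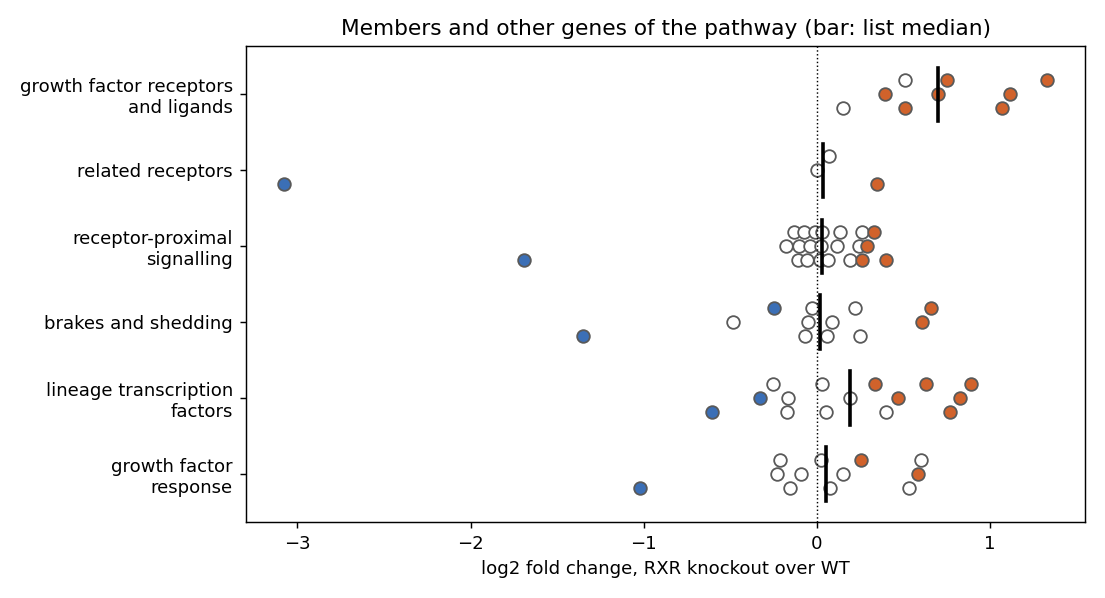
Log2 ratio, knockout over WT, of each tested gene in the member set and in the 5 other lists with tested genes, with genes that rose in orange, genes that fell in blue, genes that did not pass open, and each list's median as a bar. The members lie to the right of 0, while the other lists spread to both sides.

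Genes whose levels ran most like those of the leading receptors were sought by Pearson correlation of log2 CPM over the 6 libraries, as a description that the genotype difference dominates. The closest to Csf1r were Gpr65 (r = 0.997), Clec4e (0.996) and Myo1c (0.995). Gpr65 encodes a proton-sensing receptor, Clec4e the C-type lectin Mincle and Myo1c an unconventional myosin. The closest to Csf2ra, the second most abundant member per kilobase, were Mfsd4a (0.999), Mturn (0.997) and Rnf123 (0.997). A correlation of at least 0.95 was shared by 338 genes for Csf1r and 332 genes for Csf2ra, so these names stand at the head of long lists.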

How the data were processed

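Per the submitters' processing notes, TopHat2 2.0.7, DESeq and mm10 (GRCm38) were used; the sources used here do not give the counting program, annotation release or use of strand. Libraries were made from 100 ng of RNA (NEBNext Ultra II) and read single-end with a 75-cycle kit, per the labels' protocols. The authors deposited raw counts for 45193 Ensembl genes. Their second deposited table holds log2 values, each a log2 of reads multiplied by 1 factor per library. The factors ran from 1.01 to 2.04 in WT and from 0.617 to 0.906 in the knockout. In the knockout columns, where a count of 1 would scale to a negative log2, it is listed as 0.

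The main test was the robust quasi-likelihood test of edgeR 4.0.16 in R 4.3.3, with TMM factors and genotype alone, on 12011 genes kept by filterByExpr (minimum count 10, minimum total 15), with Benjamini-Hochberg adjustment and a threshold of 0.05. Standard errors were obtained from the F statistic. Symbols matched 45106 IDs; positions and exon lengths came from GENCODE M21. Correlations used log2(CPM + 0.5). Members and lists were chosen with earlier results of these data known. Named genes were the members, up to 2 risers and 2 fallers with the smallest adjusted p in each list, modified loci, nearest correlates and the top gene of each marker list (among them Nkg7, 1.28 ± 0.517 and 0.708 ± 0.193 CPM, and Pf4, 86.1 ± 14.9 and 70.7 ± 10 CPM, of the lymphocyte and the erythroid and megakaryocyte lists). The lymphocyte list summed to 1.04 to 2.08 CPM in WT and 0.794 to 1.92 CPM in the knockout, the erythroid and megakaryocyte list to 78.4 to 108 and 68.5 to 88.3 CPM, the progenitor list to 35.3 to 41.5 and 36.2 to 42.5 CPM, the mast cell list to 6.43 to 8.35 and 7.94 to 8.75 CPM and the dendritic cell list to 11.8 to 18.1 and 12.7 to 18.9 CPM. Alternatives were RLE and upper-quartile factors, no filter, a filter of 1 CPM in 3 libraries, DESeq2 1.42.0, limma-voom 3.58.1, limma on the authors' log2 values (pseudocount 1), a fit that is not robust, the replicate number as a block, thinning to 7880320 reads and leaving out each library. Added after seeing the data were leaving out WT replicate 2 with knockout replicate 3, and another length per gene. A gene that this rule names among the transcription factors is not reported here.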

Additional observations from a re-analysis of the deposited data

How the results depend on the processing

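Between 6 and 7 members rose and 0 fell under each of the 17 alternatives. Csf1r, Csf2ra, Csf2rb, Csf2rb2, Csf3r and Kitl passed in every one, with Csf1r at 0.35 to 0.45 and an adjusted p of 0.0491 without knockout replicate 1; the summed beta chain pair ran from 0.85 to 0.90. Leaving out a library gave 667 to 1278 genes higher and 619 to 1329 lower, 0 to 4 rises in receptor-proximal signalling, 0 to 1 in related receptors and 1 to 3 in growth factor response, and 1 fall in brakes and shedding and 1 to 2 in transcription factors. With no filter, receptor-proximal signalling had 2 rises, growth factor response 1 rise and brakes and shedding 1 fall. With thinning, brakes and shedding had 1 fall. Without WT replicate 2 and knockout replicate 3, receptor-proximal signalling had 0 rises. For these counts the cause was not tested. With the replicate number as a block, 709 genes rose and 666 fell, receptor-proximal signalling had 0 rises, related receptors 0 rises, growth factor response 1 rise, brakes and shedding 1 fall and transcription factors 1 fall, while the members kept 7 rises. Deviations of same-numbered libraries had correlations of 0.0738, -0.349 and -0.306. Other combinations of a WT and a knockout library ran from -0.147 to 0.383, with 0.299 for WT replicate 3 and knockout replicate 2. Such values cannot show whether libraries were prepared in pairs, and the labels name no pairs. Some signs turned when a library was left out, and no turned value passed the threshold: Il3ra ran from -0.0072 (without knockout replicate 3) to 0.29, Procr from -0.015 (without WT replicate 2; -0.013 without knockout replicate 1) to 0.13, Batf3 from -0.068 (without WT replicate 3; -0.015 without knockout replicate 3) to 0.31 and Col1a1 from -1.23 (without knockout replicate 3, adjusted p = 0.0139) to 0.037 (without knockout replicate 2). Without WT replicate 2 and knockout replicate 3, Procr was at -0.0014 and Col1a1 at -1.33 (adjusted p = 0.00717). With no filter the median of all genes was 0.12. Depth limits Csf1, Kit and Flt3, which had between 2 and 72 reads in a library.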
